A study of Mus musculus with 6 samples.

Results

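The BCL2 family regulators of apoptosis were followed through 6 RNA-seq libraries of the mouse macrophage cell line RAW264.7. The genes were chosen by name, as the rows of the count tables listed as Bax, Bak1, Bbc3, Pmaip1, Bcl2l11, Bid, Bad, Bcl2, Bcl2l1 and Mcl1. All 10 were found among 24062 genes, and all 10 were among the 11574 genes that entered the tests, which required 10 counts or more in 3 or more libraries. The M0 state was left unpolarized. The M1 state was induced with LPS at 100 ng/mL plus IFN-γ at 20 ng/mL, and the M2 state with IL-4 at 20 ng/mL, each for 24 h. The irradiated counterparts RM0, RM1 and RM2 were given 10 Gy of gamma radiation from a cesium source after polarization and kept for another 24 h. All 6 conditions come from 1 established line, and each library was made from RNA pooled from 5 wells, so a difference between 2 libraries has no replicate check. The labels do not say how long the non-irradiated cells were kept after polarization, and their tissue field names bone marrow while their cell line field names RAW264.7.

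Proteins of the BCL2 family decide whether the outer membrane of mitochondria is opened, the step that commits most cells to apoptosis. The effectors BAX and BAK form the pores. The BH3-only proteins PUMA, NOXA, BIM, BID and BAD report stress, either by activating the effectors or by occupying the pro-survival proteins BCL2, BCL-XL and MCL1, which hold the effectors in check. DNA damage reaches the family mainly through p53, which can switch on Bax, Bbc3 (PUMA) and Pmaip1 (NOXA), and inflammatory stimuli reach it through factors such as NF-κB.

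Counts per library summed to between 17894937 and 18870516. Of 9 macrophage markers, 8 were matched by symbol and all 8 were detected, and 6 of 7 M1 markers were called higher in the M1 states by the edgeR test below. Of 7 M2 markers, Retnla and Chil3 were at 0 in every library. Arg1 had 31 reads in M2 and 89 in RM2 against 0 in M0, so few reads here mark the M2 state. The M2 label itself was given to cells treated with IL-4. For M2 cells the paper reports more CD206 than in M0 by flow cytometry, and higher M2 markers in its RNA-seq. The 2 M2 markers that could be tested, Il4ra and Mrc1, were called higher in M1, with 672 and 10 reads in M0, 1783 and 50 in M1 and 600 and 6 in M2. The summed level of 7 fibroblast markers was 6.30 to 9.63 CPM (reads scaled to library size) in the M0 and M2 states and 42.9 to 43.8 in the M1 states. This came from Dcn, while Col1a2, Col3a1 and Thy1 were at 0 throughout, and its part in any M1 result was not tested. T cell and B cell markers summed to at most 0.0510 and 0.252 scaled CPM.

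All levels below are CPM after TMM scaling, which compares a gene between libraries but not with another gene. Among the effectors, Bax measured 178, 139 and 167 in M0, M1 and M2, and 197, 127 and 148 in RM0, RM1 and RM2, from 2050 to 3863 reads. Its M1 and RM1 libraries were the lowest 2 of the 6. In bulk RNA, fewer cells carrying a transcript and less of it per cell cannot be told apart. The widest difference between its libraries was 1.55-fold. Bak1 measured 91.8, 191 and 84.6 in M0, M1 and M2, and 98.8, 108 and 78.0 in RM0, RM1 and RM2, from 1547 to 2819 reads. M1 stood alone at the top, and the span of 2.44-fold was the widest of the 10 genes. Bax lies on the minus strand at chr7:45461695-45466898 and Bak1 on the minus strand at chr17:27025793-27028626 (mm10). The span listed for Bak1 covers 30.8% of the GENCODE M21 gene, so where within the gene its reads were counted is not known. Bak1 overlaps Ggnbp1 and Bax overlaps Gm45808, and whether strand was used in counting is not given in the sources used here.

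Of the BH3-only genes, Bbc3, encoding PUMA, a direct p53 target, measured 41.8, 65.1 and 45.1 in M0, M1 and M2, and 46.7, 44.9 and 39.1 in RM0, RM1 and RM2. Only M1 stood apart, and the other 5 libraries lay within 39.1 to 46.7. Pmaip1 on chromosome 18, encoding NOXA, which binds mainly MCL1, measured 52.2, 48.2 and 53.2 in M0, M1 and M2, and 49.8, 74.6 and 62.9 in RM0, RM1 and RM2. The highest 2 of its libraries were both irradiated and polarized. Bcl2l11, encoding BIM, which binds all pro-survival members, measured 71.3, 44.2 and 71.7 in M0, M1 and M2, and 82.3, 65.3 and 78.0 in RM0, RM1 and RM2. M1 was its lowest library and RM1 the next, and each irradiated library lay above its counterpart. Bid, encoding the member that caspase 8 cleaves, measured 73.7, 82.3 and 77.0 in M0, M1 and M2, and 69.2, 54.3 and 67.1 in RM0, RM1 and RM2. Each irradiated library lay below its counterpart, and the 3 irradiated libraries were all below the 3 non-irradiated ones. Bid was the 1 member of 10 whose irradiated and non-irradiated libraries did not overlap, where 6.01% of all genes tested did not. Bad, encoding a BH3-only protein held inactive by phosphorylation, measured 26.8, 47.8 and 27.0 in M0, M1 and M2, and 28.7, 32.2 and 20.5 in RM0, RM1 and RM2, with M1 apart at the top.

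Among the pro-survival genes, Bcl2 measured 35.6, 15.1 and 33.9 in M0, M1 and M2, and 29.3, 15.1 and 34.8 in RM0, RM1 and RM2. The M1 and RM1 libraries, with 224 and 251 reads, lay below the other 4, which held 574 to 707 reads. Bcl2l1, encoding BCL-XL, measured 230.4, 370.3 and 218 in M0, M1 and M2, and 249, 293 and 208 in RM0, RM1 and RM2. Mcl1, encoding a short-lived protein that is resynthesized continuously, measured 541, 791 and 499.9 in M0, M1 and M2, and 608, 906 and 607 in RM0, RM1 and RM2. For Bcl2l1 and Mcl1 the M1 and RM1 libraries were the highest 2, opposite to Bcl2. Over the family the M1 and RM1 libraries lay outside the range of the other 4 for 7 members, above it for Bak1, Bcl2l1, Mcl1 and Bad and below it for Bax, Bcl2l11 and Bcl2, where 61.8% of all genes tested lay so. Bcl2 spans chr1:106538178-106714290 on the minus strand, Bcl2l1 spans chr2:152765655-152831728 on the minus strand and Mcl1 spans chr3:95658721-95663178 on the plus strand. Bcl2 overlaps D630008O14Rik.

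**Figure D1:**
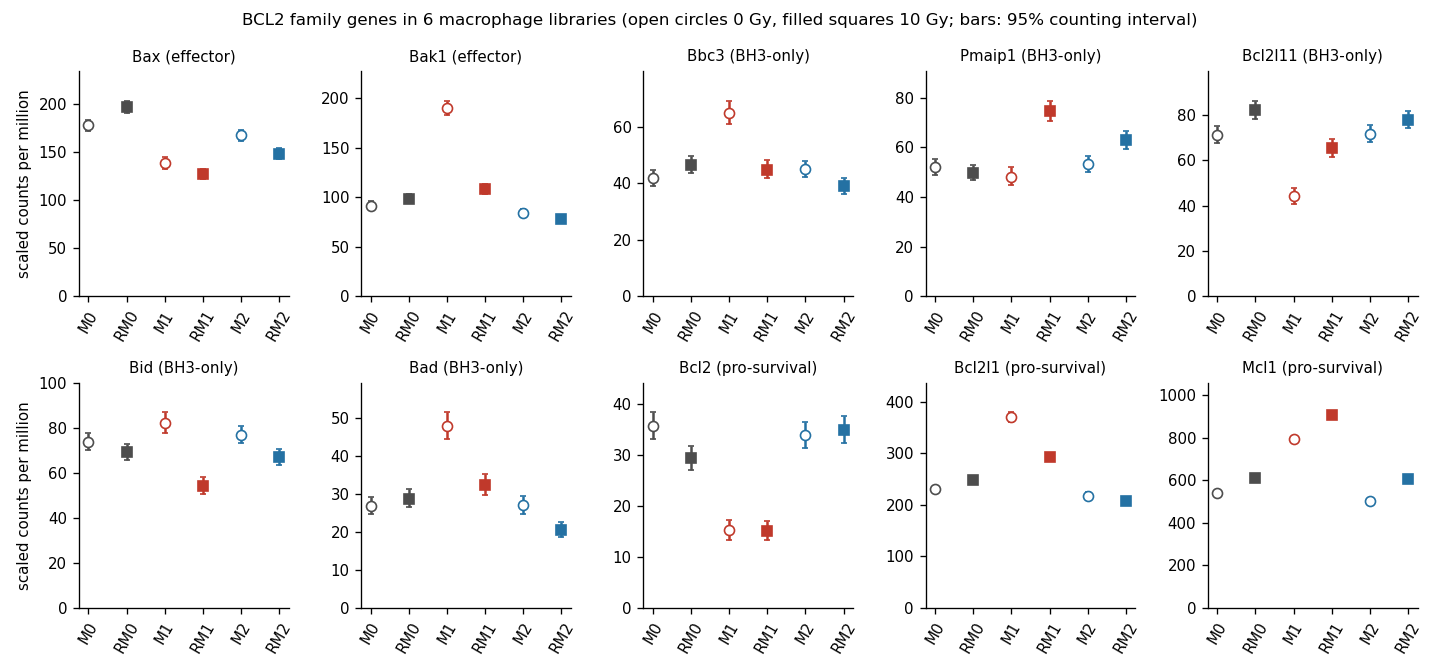
Scaled CPM (y axis, from 0) of the 10 genes in each of the 6 libraries (x axis), with open circles for 0 Gy, filled squares for 10 Gy and bars for exact 95% intervals that cover counting error only. M1 is alone at the top for Bak1, Bbc3 and Bad, and M1 and RM1 are lowest for Bcl2 and highest for Mcl1.

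Per length of the longest GENCODE transcript, in RPKM, the mean level over the 6 libraries was 193 for Mcl1, 145 for Bax, 102 for Bcl2l1, 45.5 for Bak1, 29.2 for Bid, 26.0 for Bbc3, 20.8 for Pmaip1, 19.9 for Bad, 13.7 for Bcl2l11 and 3.80 for Bcl2. In that order most neighbours overlapped in their ranges over libraries, as Mcl1 at 146 to 265 and Bax at 116 to 179 did. Bcl2, at 2.09 to 4.96, lay wholly below Bcl2l11, at 8.78 to 16.3. The place of Bak1 depends on the length used. Per length of the exons inside its listed span its levels were 246 to 601, above the level of Mcl1 in each library.

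The first question was whether radiation moved the family in the same way in the 3 states. The quasi-likelihood test of edgeR was fitted to all 6 libraries with a term for the state and a term for radiation, so that the states stand in for replicates. No member passed an adjusted p of 0.05, where 0.475% of the 11574 genes did (40 higher and 15 lower). At an unadjusted p under 0.05 there were 2 members of 10, beside 14.7% of all genes tested, and DESeq2 also called 0. These were Bcl2l11, with a log2 difference of 0.29 ± 0.11 (SE, adjusted p = 0.269 in the edgeR test), and Bid, with -0.29 ± 0.12 (adjusted p = 0.285). The other 2 genes with a positive estimate were Pmaip1 at 0.27 ± 0.13 and Mcl1 at 0.21 ± 0.11, and the 7 negative estimates included Bad at -0.29 ± 0.13 and Bax at -0.05 ± 0.10. The median over members was -0.09, beside -0.01 over all genes tested. Without the M0 library the estimates of Pmaip1, Bak1 and Bad were 0.43, -0.47 and -0.49. The RM0 library that remains is then fitted by its own state term, so these estimates come from the M1 and M2 states. With the state M0, M1 or M2 left out as a whole, no member was called, beside 1.56%, 4.56% and 0.708% of all genes tested. With the M0 or the RM0 library alone left out this did not hold.

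State by state, no member differed 2-fold between an irradiated library and its counterpart. The share of genes that did was 1.54% in RM0 against M0, 5.33% in RM1 against M1 and 1.97% in RM2 against M2, counted over genes with at least 10 reads in 1 of the 2 libraries. In RM0 against M0 the largest difference was that of Bcl2, at -0.28 on the log2 scale (95% counting interval -0.44 to -0.12), and 7 of the 10 genes were higher. In RM2 against M2 the largest was Bad, at -0.40 (-0.59 to -0.21), followed by Mcl1 at 0.28 (0.24 to 0.32) and Pmaip1 at 0.24 (0.12 to 0.36). The differences were widest in RM1 against M1. Bak1 was 1.76-fold lower in RM1 (log2 -0.81, -0.90 to -0.73), Bid 1.52-fold lower (-0.60, -0.73 to -0.48) and Bad 1.48-fold lower (-0.57, -0.73 to -0.41). Pmaip1 was 1.55-fold higher (0.63, 0.49 to 0.76) and Bcl2l11 1.47-fold higher (0.56, 0.42 to 0.70), so that BH3-only genes lay on both sides. Mcl1 and Bcl2l11 were the 2 genes higher in all 3 states, also with library totals in place of TMM, Mcl1 by 0.17, 0.19 and 0.28 on the log2 scale and Bcl2l11 by 0.21, 0.56 and 0.12. With library totals the near-zero values of Bax (to 0.02) and Bcl2 (to 0.13) in RM1 against M1 and of Bcl2 (to -0.01) in RM2 against M2 changed sign. These values compare pairs of libraries and carry no p-value.

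**Figure D2:**
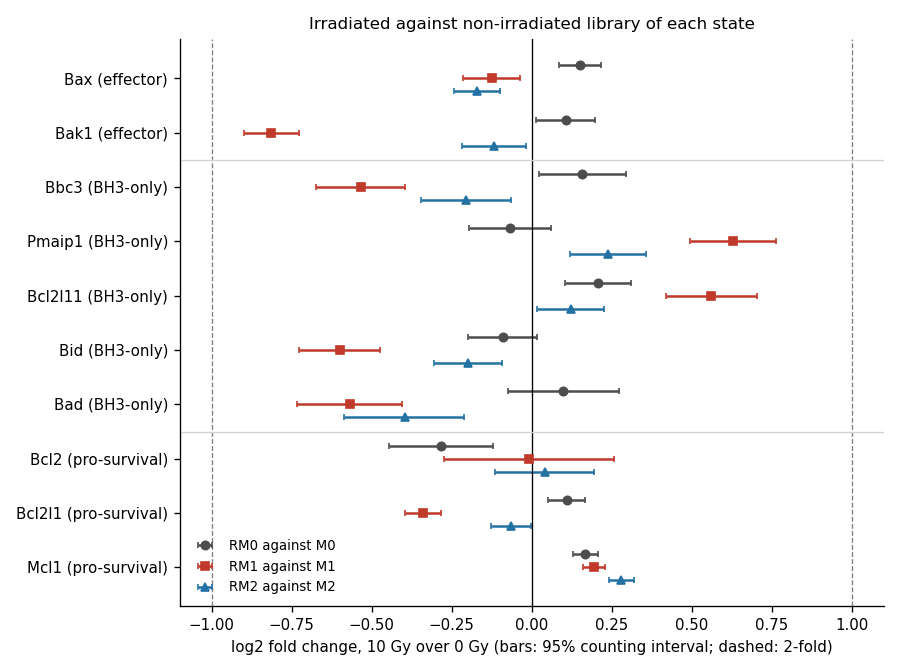
Log2 fold change of each gene in the irradiated over the non-irradiated library (x axis) for the M0, M1 and M2 states, with bars for 95% counting intervals and dashed lines at 2-fold. No point passes 2-fold, and the widest differences are in M1, from -0.81 for Bak1 to 0.63 for Pmaip1.

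Whether radiation acted differently in M1 than in M0 and M2 was tested as an interaction in the same kind of fit. It left 1 residual degree of freedom and assumes the same radiation effect in M0 and M2. No replicate spread of the M1 response enters its p-values. Of the members 2 were called, 1 in each direction, where 8.67% of all genes tested were. Bak1 responded 0.81 ± 0.17 log2 units lower in M1 than in the other states (SE, edgeR adjusted p = 0.000155). Pmaip1 responded 0.54 ± 0.18 higher (adjusted p = 0.0393), and this call was lost with median-ratio size factors (adjusted p = 0.0516), without the filter on low counts (adjusted p = 0.136), in DESeq2 (adjusted p = 0.329) and after removal of the GC trend described below (adjusted p = 0.0616). At an unadjusted p under 0.05 there were 7 of 10 members, beside 23.1% of all genes tested, among them Bbc3 at -0.51 ± 0.18 (adjusted p = 0.0579) and Bid at -0.46 ± 0.18 (adjusted p = 0.0877). Against M0 and M2 as one group, Bcl2 and Mcl1 gave estimates of 0.11 ± 0.22 and -0.03 ± 0.16.

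Transcript GC content moved with these differences. Over 9011 genes the correlation of GC content with the log2 difference was 0.229 in RM0 against M0, -0.386 in RM1 against M1 and -0.383 in RM2 against M2. Over the 10 members, which share the 2 libraries of each pair, it was 0.522, -0.679 and -0.735. Bbc3 at 65.2% GC and Bax at 63.5% lay at one end, and Pmaip1 at 42.1% and Bcl2 at 46.3% at the other. After the trend over all genes was removed, RM1 against M1 still showed Bak1 at -0.61, Bid at -0.55, Bcl2l11 at 0.51 and Pmaip1 at 0.41, while Bbc3 moved from -0.53 to -0.16 and Bax from -0.13 to 0.21. In RM2 against M2 the median size of the members' differences without the trend was 0.0576, with Bad at -0.29 and Mcl1 at 0.26 the widest. The source of the trend was not tested.

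**Figure D3:**
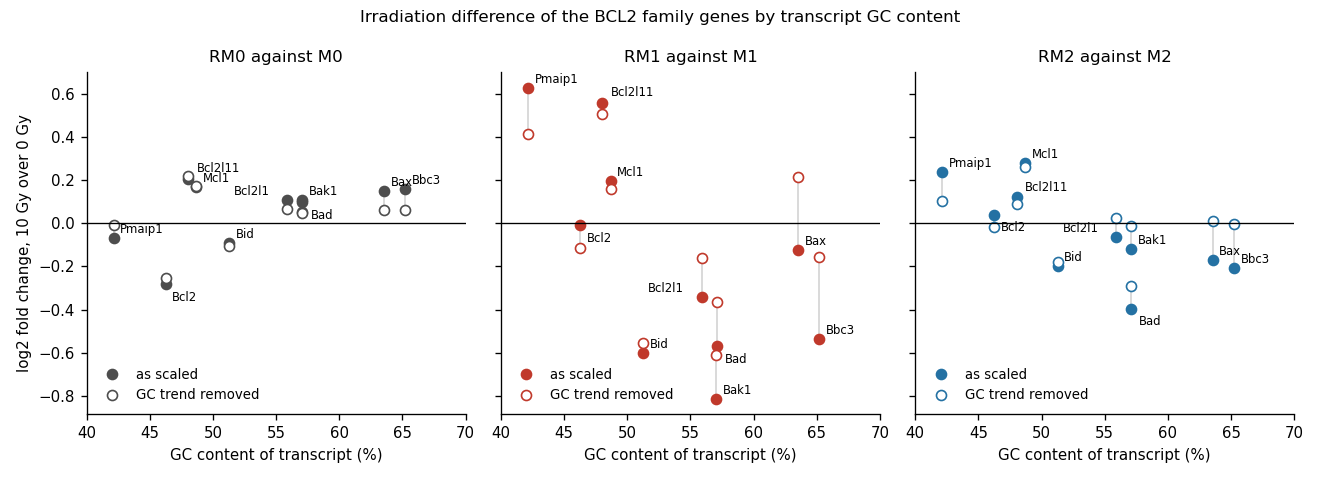
Log2 fold change of each gene with radiation (y axis) against the GC content of its longest transcript (x axis, percent) for the 3 states, as scaled (filled) and after removal of the trend over all genes (open). As scaled, GC-rich genes tend to be lower in M1 and M2, with exceptions. In M1, Bid at 51.3% GC is at -0.60 and Bax at 63.5% at -0.13. After removal, Bak1, Bid, Bcl2l11 and Pmaip1 in M1 keep differences between -0.61 and 0.51.

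Bax is the member of the pore-forming pair best known as a p53 target. Its promoter is shown because a p53 half-site of 10 bases was found in it, and in no other of the 9 members with a RefSeq promoter window. The match was in 1 of their 15 windows, and in 8.356% of 32851 windows of 300 bases (250 before a gene's start and 50 after). A single half-site was searched for, not a full p53 site. The 250 bases before the start lie at chr7:45466899-45467148 (GRCm38.p6, minus strand), with the match in capitals and its first base 201 bases before the start.

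Bax: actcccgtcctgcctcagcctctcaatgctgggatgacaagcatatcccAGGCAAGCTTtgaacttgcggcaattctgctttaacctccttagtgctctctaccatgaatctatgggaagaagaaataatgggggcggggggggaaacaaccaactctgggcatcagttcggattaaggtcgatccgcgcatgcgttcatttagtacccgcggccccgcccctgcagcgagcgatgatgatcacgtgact

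The match describes letters in this window and says nothing of binding. Bax, with this match, measured 0.15, -0.13 and -0.17 log2 units with radiation in M0, M1 and M2, and Bbc3, whose windows held no such match, measured 0.16, -0.53 and -0.21. The genes of the wider p53 list, Ccng1, Fas, Phlda3, Btg2 and others outside the family, were set beside them. Of its 19 genes tested, 17 had a positive estimate, and the median was 0.31, beside -0.01 over all genes tested. Only 1 passed the shared irradiation test, where 0.475% of all genes tested did. That gene was Ccng1, encoding cyclin G1, at 0.81 ± 0.12 (edgeR adjusted p = 0.0146), with 2437, 2332 and 2710 reads in M0, M1 and M2 and 3647, 5611 and 4416 in RM0, RM1 and RM2. Phlda3, encoding an inhibitor of AKT, was 0.80, 1.58 and 0.47 log2 units higher in RM0, RM1 and RM2, and Btg2, an antiproliferative gene, 0.11, 1.35 and 0.28. Fas, encoding a death receptor, was 0.45 and 0.71 higher in RM0 and RM2 and 0.33 lower in RM1 (log2 -0.33), and Pidd1 measured -0.27, 0.11 and -0.56. The p53 list was drawn from textbook targets with earlier results of these data known.

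The second question was how M1 polarization moved the family. Tested over irradiated and non-irradiated libraries together, 7 of 10 members differed between the M1 and M0 states, where 47.6% of all genes tested did. Higher in M1 were Bak1 at 0.61 ± 0.19 (SE, edgeR adjusted p = 0.0200), Mcl1 at 0.56 ± 0.13 (adjusted p = 0.00536), Bad at 0.50 ± 0.16 (adjusted p = 0.0255) and Bcl2l1 at 0.46 ± 0.14 (adjusted p = 0.0177). Lower were Bcl2 at -1.10 ± 0.14 (adjusted p = 0.000144), Bcl2l11 at -0.50 ± 0.14 (adjusted p = 0.0118) and Bax at -0.50 ± 0.13 (adjusted p = 0.00842). So with TMM scaling each role had members on both sides. Of the effectors 1 was up and 1 down, and of the pro-survival genes 2 were up and 1 down. Bbc3 at 0.29 ± 0.16, Pmaip1 at 0.24 ± 0.16 and Bid at -0.09 ± 0.14 did not pass, though Bbc3 did with the GC trend removed (0.36, edgeR adjusted p = 0.0172).

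The upward calls depended on the scaling between libraries. With library totals in place of TMM the split was 0 higher and 4 lower (Bcl2, Bcl2l11, Bax and Bid), beside 50.5% of all genes called. Bbc3 and Pmaip1 turned negative, and the median of all genes in M1 against M0 moved from -0.03 to -0.46. Relative to that median, 6 of the 10 genes were above it under both scalings. The change of scaling moves all genes of a pair by nearly the same amount, so this count could not differ. Bak1, Bad and Bcl2l1 were not called without the M0 or without the M1 library, Mcl1 not without M0 or RM0, Bcl2l1 not without M2 or RM2 either, and Bax not without RM0, while Bcl2 and Bcl2l11 passed without each of the 6 libraries in turn. Leaving out M0 or M1 gave a call to Pmaip1 (higher, 0.49 and 0.51), and leaving out M1 gave one to Bid (lower, -0.32). Leaving out RM0 or RM1 gave one to Bbc3 (higher, 0.56 and 0.55).

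Between M1 and M0 alone, 2 members passed 2-fold, beside 22.7% of all genes. Bcl2 was 2.34-fold lower (log2 -1.23, 95% counting interval -1.46 to -1.02) and Bak1 2.08-fold higher (1.05, 0.97 to 1.14). Bak1 did not pass 2-fold with library totals (0.61) or with the GC trend removed (0.95), and Bcl2l11 did with library totals (-1.13). Bad at 0.83, Bcl2l1 at 0.68, Bbc3 at 0.64 and Mcl1 at 0.55 were higher by less, and Bcl2l11 at -0.69 and Bax at -0.36 were lower. Between RM1 and RM0 no member passed 2-fold, beside 14% of all genes, and Bcl2 was again the lowest at -0.96 (-1.18 to -0.74). Mcl1 was at 0.55 without radiation and 0.58 with it. Bak1 went from 1.05 without radiation to 0.13 with it, Bbc3 from 0.64 to -0.06, Bad from 0.83 to 0.17, Pmaip1 from -0.11 to 0.58 and Bid from 0.16 to -0.35. With library totals Bid turned to -0.28 in M1 against M0, and Bak1, Bad and Bcl2l1 turned to -0.11, -0.08 and -0.01 in RM1 against RM0. The RM1 library is also the one that enters the irradiation difference in M1, so these are the same values seen from the other side.

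**Figure D4:**
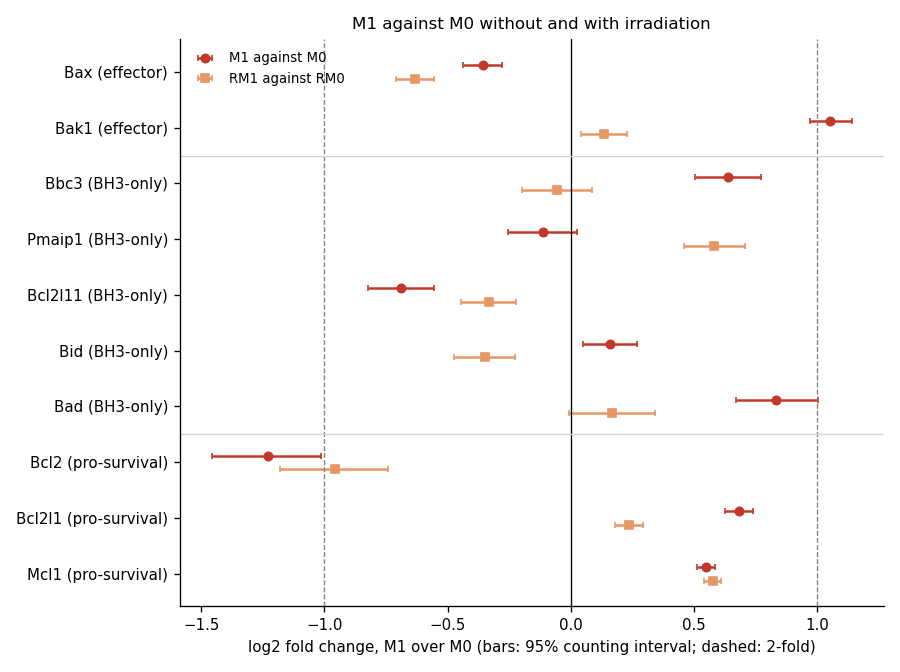
Log2 fold change of each gene in M1 over M0 (x axis) without radiation (dark circles) and with it (light squares), with bars for 95% counting intervals and dashed lines at 2-fold. Bcl2 is the lowest gene in both comparisons at -1.23 and -0.96, and Bak1 lies at 1.05 and 0.13.

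The 250 bases before the start of Bcl2, at chr1:106714291-106714540 (GRCm38.p6, minus strand), are shown because Bcl2 had the largest M1 difference in the family. Capitals mark the GC box, GGGCGG on either strand, found 7 times in its window. The GC box was in 10 of the 15 windows of the 9 members, since a gene can have several, and in 35.66% of all windows.

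Bcl2: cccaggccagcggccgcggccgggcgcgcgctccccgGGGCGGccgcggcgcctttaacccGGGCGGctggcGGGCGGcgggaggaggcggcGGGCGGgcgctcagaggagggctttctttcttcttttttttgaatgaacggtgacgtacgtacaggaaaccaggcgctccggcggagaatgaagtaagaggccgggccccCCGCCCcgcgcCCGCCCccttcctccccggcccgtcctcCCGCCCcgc

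For NF-κB, a factor that LPS acts through, a site (named motif, both strands) was found in 2 of the 15 windows, those of Bcl2l1, which was higher in M1, and Bbc3, which did not pass, and in 4.505% of all windows. The E-box CACGTG, bound by MYC and related factors, was found in 2 of the 15 windows, of Bax and Bbc3, and in 7.15% of all windows, and the CACGTG of Bax begins 9 bases before its start. A window without a match shows only that these letters are not in those 300 bases.

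Ratios of read counts within a library do not depend on the scaling between libraries, but they still carry the GC trend described above. Bax had 1.94 reads for each read of Bak1 in M0 (95% counting interval 1.83 to 2.05) and 1.98 in M2, but 0.727 in M1 (0.687 to 0.770). After radiation the ratio was 2.00 in RM0, 1.90 in RM2 and 1.17 in RM1 (1.10 to 1.25). The effector with more reads was thus Bak1 in the M1 library and Bax in the other 5. Read counts also depend on the length counted. Per longest transcript, Bax lay above Bak1 in each library (126 against 79.9 RPKM in M1). Per length of the exons inside the listed span it lay below Bak1 in each (88.0 against 601 in M1). Mcl1 had 15.2 reads for each read of Bcl2 in M0, 14.8 in M2, 20.7 in RM0 and 17.4 in RM2, against 52.2 in M1 (45.8 to 59.9) and 60.2 in RM1 (53.1 to 68.4). Between the pro-survival genes Mcl1 and Bcl2l1 the ratio was 2.35, 2.14 and 2.30 in M0, M1 and M2, and 2.45, 3.10 and 2.92 in RM0, RM1 and RM2. The irradiated library was the higher one in each state, though the intervals of M0 (2.27 to 2.43) and RM0 (2.37 to 2.53) overlapped. With the GC trend removed, Mcl1 and Bcl2l1 were at 0.17 and 0.07 (log2) in RM0 against M0. They were at 0.16 and -0.16 in RM1 against M1, and at 0.26 and 0.02 in RM2 against M2. Between the p53-responsive BH3-only genes, Bbc3 had 0.802 reads for each read of Pmaip1 in M0, 0.847 in M2 and 1.35 in M1, against 0.938 in RM0, 0.603 in RM1 and 0.622 in RM2. Bcl2l11 had 0.967, 0.537 and 0.932 reads for each read of Bid in M0, M1 and M2, and 1.19, 1.20 and 1.16 in RM0, RM1 and RM2.

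**Figure D5:**
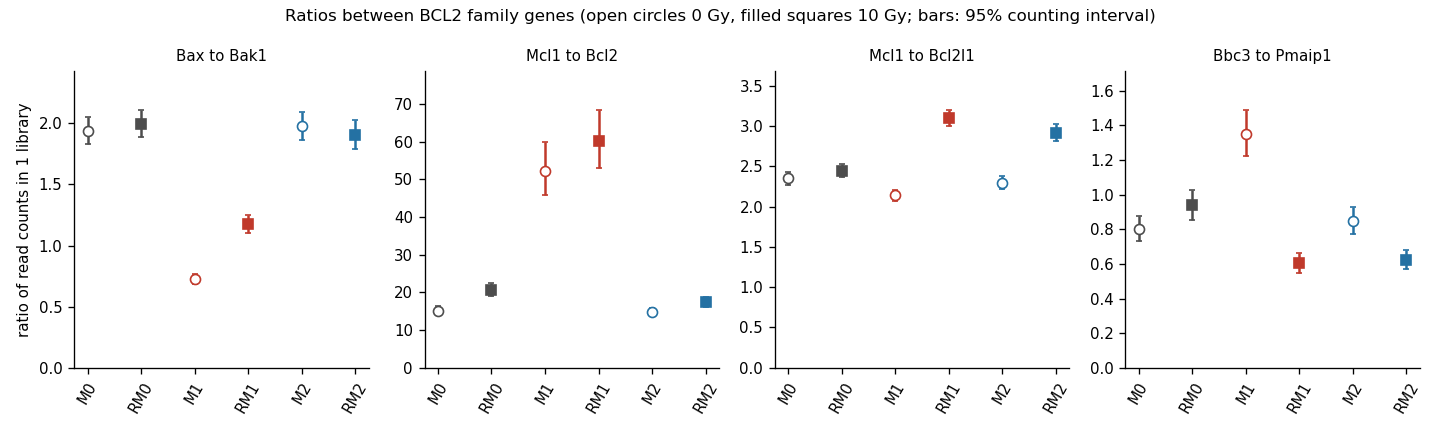
Ratio of the read counts of 2 genes within each library (y axis, from 0) for 4 pairs of genes, with open circles for 0 Gy, filled squares for 10 Gy and bars for exact 95% counting intervals. Bax to Bak1 is lowest in M1 at 0.727, and Mcl1 to Bcl2 is highest in M1 and RM1 at 52.2 and 60.2. The GC trend is not removed from these ratios.

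The third comparison was M2 with M0. No member was called in the shared test, where 0.19% of all genes were, none reached an unadjusted p under 0.05, and DESeq2 also called 0. Estimates ran from -0.25 ± 0.13 for Bax to 0.17 ± 0.16 for Pmaip1. No member passed 2-fold between M2 and M0, beside 1.44% of all genes, or between RM2 and RM0, beside 2.61%. Between M2 and M0 the widest was Bak1 at -0.12 (-0.21 to -0.02). Between RM2 and RM0 they ran from -0.49 for Bad to 0.34 for Pmaip1, and the correlation with GC content over the members was -0.854, beside -0.638 over 9011 genes. With the GC trend removed Bad was at -0.25, Pmaip1 at 0.06 and Bax at -0.03 instead of -0.41, and the median size over the members was 0.0819.

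The members differed in how widely they varied. The highest library exceeded the lowest by a median of 1.80-fold over the 10 genes, beside 1.64-fold over 9412 genes whose mean was 100 counts or more. The widest were Bak1 at 2.44-fold, Bcl2 at 2.37-fold and Bad at 2.34-fold, and the narrowest was Bid at 1.52-fold. Across the 6 libraries, Pearson's r of log2 levels was highest within the family for Bak1 with Bcl2l1, at 0.971, and lowest for Bcl2 with Mcl1, at -0.939. Among 9412 genes, the pattern most like that of Bcl2l1 was that of Ctsd, encoding the lysosomal protease cathepsin D (r = 0.9999), that of Mcl1 was most like Ifitm6 (0.9993), that of Bak1 most like Tecpr1 (0.9994) and that of Bcl2 most like 4930506M07Rik (0.9989). With 6 points and a choice among that many genes these values describe the libraries, which share the M1 and GC differences given above.

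The rest of the family and its neighbours were read from lists. Of 16 other BCL2 family genes 11 could be tested, and none passed the shared irradiation test in edgeR. For M1 against M0, 1 was higher and 3 were lower, where 47.6% of all genes tested were called. The higher one was Bcl2l13, a mitochondrial member, at 0.63 ± 0.13 (edgeR adjusted p = 0.00202). Of the 3 lower, Bmf, a BH3-only gene, was at -1.28 ± 0.28 (adjusted p = 0.00330), Bcl2l2, encoding the pro-survival BCL-W, at -0.61 ± 0.12 (adjusted p = 0.00207) and Bnip3, a mitophagy receptor, at -0.56 ± 0.16 (adjusted p = 0.0166). Bmf had 763, 133 and 677 reads in M0, M1 and M2 and 731, 389 and 628 in RM0, RM1 and RM2, and its response to radiation differed in M1 by 1.43 ± 0.22 (adjusted p = 3.88e-08). Bnip3 also responded differently in M1, by 0.67 ± 0.17 (adjusted p = 0.00375). No other of the 11 was called in that test, where 8.67% of all genes tested were. The third effector gene, Bok, had 2 to 14 reads, Hrk and Bcl2l10 had 0 in every library, and the near-identical Bcl2a1a, Bcl2a1b and Bcl2a1d may share reads, so their separate counts are uncertain. Bcl2l15, with 7 to 52 reads, was 1.67 log2 units higher in RM1 than in M1.

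Downstream of the mitochondria, none of 14 apoptosome and caspase genes passed the shared irradiation test, and 4 were higher and 1 lower in M1, where 47.6% of all genes were called. Among the higher ones were Casp6, encoding a caspase, at 2.08 ± 0.14 (edgeR adjusted p = 1.94e-06) and Cycs, encoding cytochrome c, at 0.47. The lower one was Diablo, encoding an antagonist of the inhibitors of apoptosis, at -0.46. Casp6 had 295 reads in M0 and 340 in RM0 against 1025 in M1 and 1112 in RM1. Endog, encoding a mitochondrial nuclease, had 40 to 62 reads and was at -0.51 in RM2 against M2.

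Of 9 inhibitors of apoptosis none passed the shared irradiation test. In M1, Birc3, encoding cIAP2, was higher at 0.46 ± 0.13 (edgeR adjusted p = 0.0171) and Birc6 lower at -0.52 ± 0.15 (adjusted p = 0.0135). No other of the 9 was called, where 47.6% of all genes tested were. The responses of Birc6 and Naip2 to radiation differed in M1, by 0.50 ± 0.17 (adjusted p = 0.0447) and 0.54 ± 0.18 (adjusted p = 0.0401). In that test 8.67% of all genes were called. Birc5, encoding survivin, which also serves in cell division, had 144, 68 and 169 reads in M0, M1 and M2 and 85, 53 and 67 in RM0, RM1 and RM2, and was 1.28 log2 units lower in RM2 (log2 -1.28). Xiap, which inhibits caspases directly, was 0.61 higher in RM1 and 0.33 higher in RM2 on the log2 scale and measured -0.03 in RM0. In M1 6 of the 19 genes tested in the p53 list were higher and 4 lower, beside 47.6% of all genes called. For 7 of the 19 the response to radiation differed in M1, higher for 6 and lower for Fas, beside 8.67% of all genes.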

How the data were processed

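RNA-seq of 6 libraries was analysed. Per the labels' processing notes, the tools were Trimmomatic 0.36, HISAT2 2.2.1 and HTSeq 0.11.3, with build mm10. The authors deposited raw counts per RefSeq gene, without normalization. Rows numbered 24062, 8137 of them at 0 in every library, and 27 symbols had become dates. The members and gene lists were chosen with earlier results of these data known. All 10 members are named, and of each other list up to 4 genes with the largest change between 2 libraries among genes with at least 50 counts, plus those past the shared irradiation test and, in the report, other genes past a test, chosen after their values were seen.

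Counts were scaled by TMM in edgeR 4.0.16 (R 4.3.3) over the tested genes. The quasi-likelihood test with Benjamini-Hochberg adjustment at 0.05 used state and irradiation as terms, leaving 2 residual degrees of freedom, and the states stand in for replicates, which assumes the same effect in each. The interaction fit added 1 term for irradiation in M1. Standard errors are the estimate divided by the root of F. Differences between 2 libraries used a prior count of 2 and were called at 2-fold with at least 10 counts in 1 library. Intervals are exact Clopper-Pearson at 95% and cover counting error only. Because wells were pooled, the libraries carry no spread between wells. GC content came from the longest GENCODE M21 transcript. Promoter windows came from RefSeq (GRCm38.p6) and were matched by symbol for 9 of the 10 members, not for Pmaip1. The alternatives were median-ratio size factors, library totals, no filter, DESeq2 1.42.0, a prior count of 0.25, a minimum of 50 counts, a 1.5-fold threshold, no state term and each state left out. Removal of the GC trend and leaving out each library were added after the data were seen. The fits were tested on simulated data. Python 3.11.15 with pandas 2.3.3 and scipy 1.17.1 was used for the rest. The study's exosome, blot, flow cytometry and qPCR data were not analysed here. Results for a few genes of the lists are not reported here.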

Additional observations from a re-analysis of the deposited data

Results flagged for a closer look

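A pair of genes was singled out because the effect of radiation differed between polarization states in a test of the difference itself. For Bak1 the response in M1 minus that in M0 and M2 was -0.81 on the log2 scale. The gene was 0.11 higher in RM0, at -0.81 in RM1 and at -0.12 in RM2. For Pmaip1 the same difference was 0.54, with 0.63 in RM1 beside -0.07 in RM0 and 0.24 in RM2, and the call was lost with median-ratio size factors, without the filter on low counts, in DESeq2 and with the GC trend removed. Both tests rest on 1 residual degree of freedom and on a single RM1 and a single M1 library.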

How the results depend on the processing

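Each member had at least 224 reads in each library, and the precision is limited by having 1 library per condition. The irradiation test called 0 members under every alternative with all 6 libraries, and 0 with each whole state left out. This did not hold with the M0 or the RM0 library alone left out. Without M0 the estimates of Pmaip1, Bak1 and Bad were 0.43, -0.47 and -0.49. With 1 library left out, the lone library of its state is fitted by its own state term. The irradiation estimate then comes from the other states. The M1 test called 7 members, 4 with library totals and 8 with the GC trend removed, beside 47.6%, 50.5% and 51.7% of all genes tested. With 1 library left out its calls changed as given above. The interaction test called 2, beside 8.67% of all genes. It called 1 with median-ratio size factors, without the filter and in DESeq2, beside 8.15%, 1.9% and 1.43%. At a 1.5-fold threshold 3 members passed in RM1 against M1, 6 in M1 against M0 and 2 in RM1 against RM0, beside 17.8%, 44.7% and 32.6% of all genes. With the GC trend removed 1 passed 2-fold in M1 against M0 and 1 in RM1 against RM0, beside 22.5% and 13.7% of all genes. With library totals 2 passed in M1 against M0 and 1 in RM1 against RM0, beside 30.4% and 17%.

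Several estimates near 0 changed sign. For irradiation, Bax turned to 0.0947 with the GC trend removed and ranged from -0.149 to 0.0195 with 1 library or state left out, above 0 without the state M2 or either of its libraries. Over the same omissions Bcl2 ranged from -0.155 to 0.0198 (above 0 without the state M0 or either of its libraries), Bcl2l1 from -0.203 to 0.0295 (above 0 without the state M1 or either of its libraries) and Bak1 from -0.469 to 0.0023 (above 0 without the state M1). For M1 against M0 with library totals, Bbc3 turned to -0.0563 and Pmaip1 to -0.0996. With 1 library left out Pmaip1 ranged from -0.0347 to 0.506 and Bid from -0.322 to 0.135, with the sign changed without RM0 or RM1. Pmaip1 in M2 against M0 ranged from -0.0548 to 0.435, below 0 without RM0. In the interaction, Bax turned to 0.0779 with library totals and 0.177 with the GC trend removed, and Mcl1 to 0.164 with library totals and 0.00056 without the filter. Bid gained an interaction call with the GC trend removed (-0.41, edgeR adjusted p = 0.0315), and Bcl2l11 with library totals (0.59, adjusted p = 0.0132). The cause of these changes was not tested.

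The number of all genes called for irradiation was 55, and was 3 with library totals, 134 without the filter, 114 in DESeq2, 26 with the GC trend removed, 174 and 522 without the states M0 and M1, 0 without the state term, and 546 to 698 without the M0, M1, RM0 or RM1 library. For M2 against M0 it was 22, and 3, 45, 41 and 6 under the first 4 of these, 263 without M0, 46 without M2 and 1398 without M1 and without RM1. For the interaction it was 1003, and 1684 with library totals, 303 without the filter and 166 in DESeq2. Irradiated and non-irradiated libraries are matched by state in the fit, and no further pairing by replicate could be made with 1 library per group.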
